A study of Mus musculus with 12 samples.

Results

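The hippocampus of 5xFAD mice was compared directly with that of mice overexpressing ULK1 without the 5xFAD transgenes (Ulk1OV). The comparison took the 3 libraries labelled 5xFAD and the 3 labelled Ulk1OV, 6 of the 12 RNA-seq libraries of the study. 5xFAD is a transgenic line in which the neuronal Thy1 promoter drives human APP with familial Alzheimer's disease mutations, and amyloid plaques form in its brain. ULK1 is the protein kinase that starts autophagy, the delivery of cytoplasm to lysosomes. The labels give the genotype of these groups as FADgene and as overexpression of ULK1, and the other 2 groups as wild type (WT) and as both changes together (5xFAD;Ulk1OV). The construct, promoter and site of the ULK1 overexpression, the age and strain of the mice and any pooling of animals are not stated in the labels used here. No treatment besides the genotype is named. A field of the labels also reads primary cells, but the tissue is given as hippocampal. Marker genes of the dentate gyrus (14 of 14 listed), of CA1 (10 of 10) and of CA2 and CA3 (15 of 15) all had enough counts to be tested. So did most genes listed for other brain regions (17 of 20) and those of choroid plexus (16 of 16), so having enough counts does not identify the tissue. The labels do not say that replicates came from separate animals, so p-values measure only how far these libraries differ, some or all of which may be technical. Neither group is the control of the other: a difference between them can come from a change in either, so WT levels are given beside it.

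Several of the gene groups that set the libraries apart belong to well-known programmes. Proteins bound for secretion or for membranes fold in the endoplasmic reticulum (ER) with the help of lumenal chaperones such as BiP (Hspa5) and GRP94 (Hsp90b1). When unfolded proteins build up there, the sensors ATF6, IRE1 and PERK start the unfolded protein response: cleaved ATF6 and spliced XBP1 switch on chaperone genes through short promoter motifs, and PERK acts through the integrated stress response and ATF4. Cholesterol in the adult brain is made locally, and SREBP2 switches on the genes of its synthesis when sterols in the ER membrane are low. Microglia, the resident macrophages of the brain, take up around amyloid plaques a state called disease-associated, with high Cst7, Clec7a, Itgax and Trem2.

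The table held 18411165, 17907104 and 18055187 counts for 5xFAD replicates 1, 2 and 3. It held 16149992, 17652128 and 18547132 for Ulk1OV. Of 54427 genes in the table, 17227 passed the filter on low counts and were tested. Transcripts of the mitochondrial genome took 5.52% to 6.98% of the counts in 5xFAD and 6.40% to 8.76% in Ulk1OV. Counts of same-group libraries were further apart than sampling alone gives (chi-square per degree of freedom 13.6 to 25.8 in 5xFAD and 16.3 to 30.2 in Ulk1OV), so none were counted together. The 4 groups share 1 estimate of the spread, and 1 library outside the comparison went against its label: the one labelled 5xFAD;Ulk1OV replicate 3 had 0 counts of Lamr1-ps1, where the 5 others with a 5xFAD label had 184 to 304. Calls are therefore given from the fit of all 12 libraries and from a fit of the 11 others. The library left out was picked by its Lamr1-ps1 counts, and its App and Prnp also lay at the WT level. A lower p of these genes in the fit of 11 is therefore no separate evidence for them. Adjusted p-values are from the fit of 12 where the other is not named.

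Across the transcriptome, 1 gene passed the test, and it was lower in 5xFAD. Manf, which encodes a secreted protein retained in the ER lumen that protects cells under ER stress, stood at 36.1, 31.1 and 33.8 CPM (counts scaled to a common library size) in 5xFAD replicates 1, 2 and 3 and at 56.5, 60.9 and 63.4 CPM in Ulk1OV. The highest 5xFAD library was well below the lowest Ulk1OV library, and WT lay with 5xFAD at 35.7, 34.3 and 37.0 CPM. The group means were 33.6 ± 2.51 and 60.3 ± 3.52 CPM (SD, n = 3 each), a log2 fold change of 5xFAD over Ulk1OV of -0.84 ± 0.11 (SE), with an adjusted p of 0.0437 (edgeR, quasi-likelihood test, adjusted by Benjamini-Hochberg). Manf lies at chr9:106838312-106891979 on the minus strand of the mouse build GRCm38. That 1 gene is 0.00580% of those tested. The spread was shared by 12 libraries: without the library labelled 5xFAD;Ulk1OV replicate 3, edgeR called 18 of 17603 genes (0.102%), 8 higher in 5xFAD (0.0454%) and 10 lower (0.0568%), with Manf at an adjusted p of 0.00322. Those 18 were Manf, Hsp90b1, Hspa5, Calr, Pdia3, Pdia6, Dnajb11, Gm6304, Thbs4, Hip1, Prnp, App, Lamr1-ps1, Hnrnpdl, Cst7, Ccl6, Acat2 and Stard4. When 1 of the 6 libraries compared was also left out, an alternative chosen after seeing the data, the number called was 4 without Ulk1OV replicate 3, 5 without 5xFAD replicate 3, 7 without 5xFAD replicate 2, 10 without Ulk1OV replicate 2, 38 without 5xFAD replicate 1 and 54 without Ulk1OV replicate 1. In the fit of 12 libraries the Manf call ended when 5xFAD replicate 1 (edgeR adjusted p = 0.0628), 2 (0.228) or 3 (0.136) or Ulk1OV replicate 2 (0.0943) or 3 (0.432) was left out. It held in 6 of 6 such omissions once the library labelled 5xFAD;Ulk1OV replicate 3 was left out too. At an unadjusted p under 0.05 there were 2027 genes (11.8%), 980 higher in 5xFAD (5.69%) and 1047 lower (6.08%). The 3 libraries of a group lay wholly apart from those of the other in 2585 genes (15.0%), 1267 higher in 5xFAD (7.35%) and 1318 lower (7.65%). DESeq2 called 133 of 14872 genes (0.894%), 55 higher (0.370%) and 78 lower (0.524%). The median log2 fold change over all genes tested was 0.01, with 8832 above 0 and 8395 below.

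The genes named in the labels or close to the transgenes were looked at first. Ulk1 (chr5:110784488-110810097) stood at 86.3, 63.5 and 70.0 CPM in the 5xFAD replicates and 102, 87.7 and 84.6 CPM in Ulk1OV, against a WT mean of 77.8 ± 3.86 (SD, n = 3). 5xFAD replicate 1 overlapped the Ulk1OV libraries. The log2 fold change was -0.32 ± 0.11, a difference that did not pass the test (edgeR adjusted p = 0.332; exact permutation test of the 20 possible splits, two-sided, p = 0.2, where 0.1 is the smallest possible). An introduced ULK1 adds to these counts as far as its reads map to mouse Ulk1. App, which encodes the amyloid precursor protein (chr16:84949685-85173766), stood at 2667, 2346 and 2565 CPM in 5xFAD and 1493, 1241 and 1378 CPM in Ulk1OV. All 3 5xFAD libraries lay above all 3 of Ulk1OV, and WT (1366, 1406 and 1472 CPM) lay with Ulk1OV. Its log2 fold change was 0.88 ± 0.18 (edgeR adjusted p = 0.184; exact permutation p = 0.1, the smallest possible), and the adjusted p was 0.00322 without the library labelled 5xFAD;Ulk1OV replicate 3. In these counts reads of human APP that align to mouse App and reads of mouse App cannot be told apart.

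Prnp, which encodes the prion protein (chr2:131909928-131938429), had a larger log2 fold change than App. It stood at 2509.7, 2142 and 2376 CPM in 5xFAD and 952, 972 and 1015 CPM in Ulk1OV, with a WT mean of 1025 ± 112 CPM. Its log2 fold change was 1.26 ± 0.23, with an edgeR adjusted p of 0.147 in the fit of 12 libraries and 0.000222 in that of 11. Lamr1-ps1, a processed pseudogene upstream of Prnp (chr2:131904086-131904959), had 304, 217 and 208 counts in 5xFAD and 0 in each Ulk1OV and WT library. Its mean of 13.6 CPM in 5xFAD was at least 77.4-fold higher than the floor of 3 counts per library in Ulk1OV, a limit that covers counting error only. Its sequence is close to that of Rpsa, a ribosomal gene, whose own log2 fold change was -0.09 (DESeq2 adjusted p = 0.819). Whether the Lamr1-ps1 reads belong in part to Rpsa was not tested. Lamr1-ps1 had an edgeR adjusted p of 0.213, and of 0.000222 in the fit of 11 libraries. That fit left out a library picked by this same gene. Thy1, the neuronal surface protein gene whose promoter drives the 5xFAD transgenes, overlapped between the groups: 603, 507 and 592 CPM in 5xFAD and 626, 609.8 and 581 in Ulk1OV, with a log2 fold change of -0.09 ± 0.09 (edgeR adjusted p = 0.712).

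**Figure D1:**
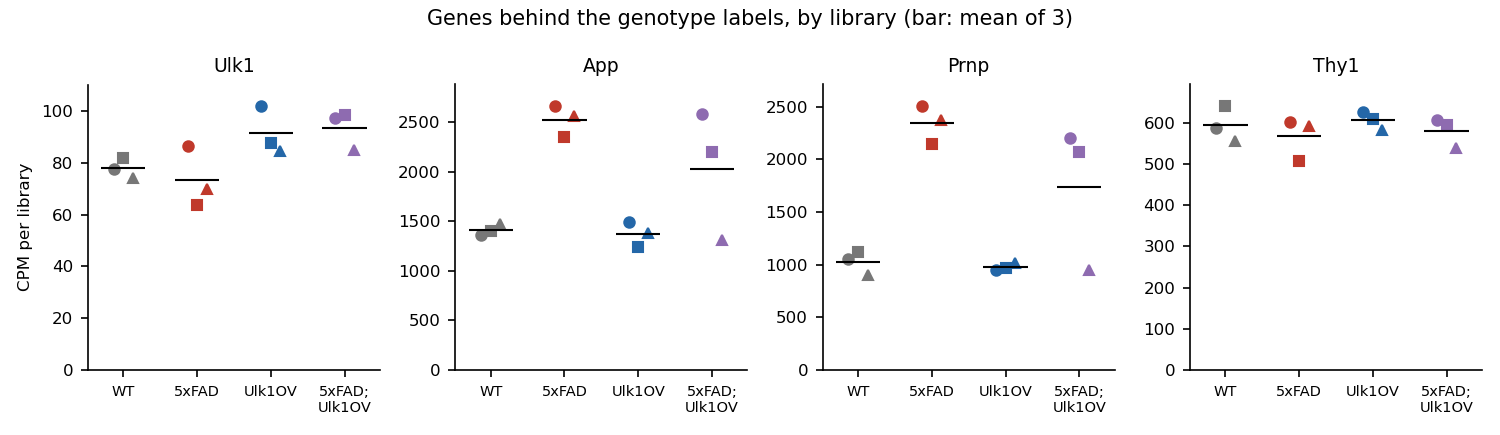
Level of Ulk1, App, Prnp and Thy1 (CPM, linear axes from 0) in each of the 12 libraries, by group; circles, squares and triangles are replicates 1, 2 and 3 and bars are the means of 3. App and Prnp are separate between 5xFAD and Ulk1OV, Ulk1 overlaps in 5xFAD replicate 1 and Thy1 overlaps, and the triangle of 5xFAD;Ulk1OV in App and Prnp lies at the WT level.

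The ER chaperone genes around Manf stood lower in 5xFAD. Of 22 genes listed for the unfolded protein response, 20 had log2 fold changes below 0 and 2 above, with a median of -0.48. At an unadjusted p under 0.05 there were 15 lower in 5xFAD and 1 higher, against 6.08% and 5.69% of all genes. The libraries of the groups did not overlap in 17 lower and 1 higher, against 7.65% and 7.35%. Manf was the only member called in the fit of 12 libraries. In that of 11, 7 were called (Manf, Hsp90b1, Hspa5, Calr, Pdia3, Pdia6 and Dnajb11), against 0.0568% lower among all genes. DESeq2 called 11, against 0.524% lower among all genes. All of these were lower in 5xFAD. The median ran from -0.51 to -0.46 when each of the 6 libraries was left out in turn. The summed level of the 22 genes was 2375, 2195 and 2189.9 CPM in the 5xFAD replicates, 3078, 3123 and 3321 in Ulk1OV, with WT at 2294, 2093 and 2375. The 3 Ulk1OV libraries thus held the 3 highest sums of these 9. The library labelled 5xFAD;Ulk1OV replicate 3, left out in the fit of 11, had 2839 CPM, against 2143 and 2257 in replicates 1 and 2 of its group. Leaving it out can thus narrow the shared spread of these genes. Across the 22 genes the median log2 fold change against the same WT libraries was -0.04 for 5xFAD and 0.46 for Ulk1OV.

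Among chaperones of the ER lumen, Hsp90b1 encodes GRP94 (chr10:86690209-86705509, minus strand). It stood at 179, 187 and 174 CPM in the 5xFAD replicates and 299.7, 298 and 332 CPM in Ulk1OV, with WT at 187, 167 and 196. The groups were far apart, and the log2 fold change was -0.78 ± 0.13 (edgeR adjusted p = 0.131, or 0.00322 without the library labelled 5xFAD;Ulk1OV replicate 3). Hspa5, the chaperone BiP that also keeps the ER stress sensors inactive, stood at 279, 217 and 201 CPM in 5xFAD and 409, 413 and 462 in Ulk1OV, a log2 fold change of -0.88 ± 0.18 (edgeR adjusted p = 0.184, or 0.0238 in the fit of 11 libraries). Its groups did not overlap, and 5xFAD replicate 1 was the nearest to Ulk1OV. Dnajb11, a lumenal co-chaperone of BiP (chr16:22857845-22879634), stood at 41.0, 37.0 and 40.6 CPM in 5xFAD and 55.2, 59.1 and 53.8 in Ulk1OV (-0.50 ± 0.09, edgeR adjusted p = 0.147, or 0.0278). Here WT lay between the groups, at 48.7, 50.6 and 48.7 CPM.

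Calr and Canx encode the lectin chaperones of glycoproteins. Calr stood at 337, 267 and 281 CPM in 5xFAD and 477, 527 and 546 in Ulk1OV (-0.81 ± 0.16, edgeR adjusted p = 0.173, or 0.0215 in the fit of 11 libraries). Canx, its membrane-bound counterpart, differed by -0.11 ± 0.07 (edgeR adjusted p = 0.537), from 401, 419 and 404 CPM to 446, 435 and 443. The difference in Canx was small beside that in Calr, though its libraries did not overlap either. The protein disulfide isomerases form the bonds of secreted proteins. Pdia6 stood at 94.1, 77.2 and 81.7 CPM in 5xFAD and 121, 145 and 146 in Ulk1OV (-0.71 ± 0.13, edgeR adjusted p = 0.147, or 0.0215). Pdia3 and Pdia4 had log2 fold changes of -0.52 ± 0.11 and -0.72 ± 0.16 (edgeR adjusted p = 0.184 and 0.203), with non-overlapping libraries in both. Creld2, Sdf2l1, Hyou1 and Dnajc3, other lumenal stress proteins, had log2 fold changes of -0.71 ± 0.18, -0.73 ± 0.19, -0.40 ± 0.10 and -0.46 ± 0.13 (edgeR adjusted p = 0.256, 0.262, 0.249 and 0.289).

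The regulators and degradation factors of the list, Derl3 apart, had log2 fold changes nearer 0 than Hsp90b1 and Hspa5. Xbp1, the transcription factor made active by IRE1, stood at 88.6, 70.8 and 74.4 CPM in 5xFAD and 90.0, 108 and 99.1 in Ulk1OV (-0.34 ± 0.12, edgeR adjusted p = 0.325). Atf6, the sensor that is cleaved in the Golgi, stood at 78.5, 75.5 and 79.8 CPM in 5xFAD against 89.6, 69.8 and 77.9 CPM (-0.02 ± 0.10, edgeR adjusted p = 0.95), with overlapping libraries. Sel1l and Syvn1, the core of the ubiquitin ligase that clears misfolded ER proteins, also overlapped, at -0.08 ± 0.10 (edgeR adjusted p = 0.783) and 0.02 ± 0.11 (edgeR adjusted p = 0.959). Edem1, which hands misfolded glycoproteins to degradation, was the 1 member with non-overlapping libraries that was higher in 5xFAD, at 27.2, 35.3 and 31.2 CPM against 27.0, 23.8 and 23.3 (0.34 ± 0.12, edgeR adjusted p = 0.331). Herpud1, Selenos and Dnajb9 had log2 fold changes of -0.19 ± 0.11, -0.22 ± 0.09 and -0.29 ± 0.11, and Derl3 one of -0.90 ± 0.43 at levels of 0.393 to 2.24 CPM (edgeR adjusted p of 0.34 to 0.502 for these 4).

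**Figure D2:**
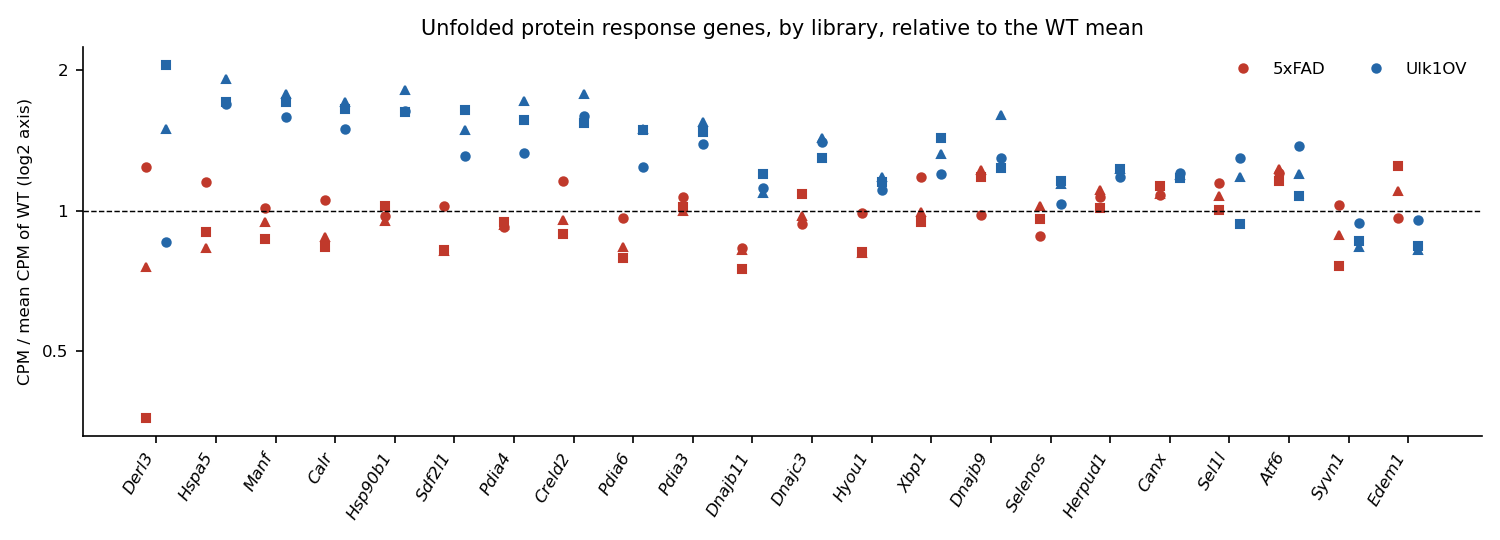
Level of each unfolded protein response gene in the 5xFAD and Ulk1OV libraries divided by the mean CPM of the 3 WT libraries (log2 axis, genes ordered by the log2 fold change of 5xFAD over Ulk1OV, circles, squares and triangles for replicates 1, 2 and 3). In 17 of 22 genes all Ulk1OV points lie above all 5xFAD points, and for Manf, Hsp90b1, Calr and Hspa5 the 5xFAD points lie around the WT mean, drawn as a dashed line.

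Because these genes differed together, their promoters were searched on both strands for the elements through which ATF6 and XBP1 are known to act. RefSeq windows of 300 bases on GRCm38.p6, from 250 before to 50 after a transcription start, were matched for 19 of the 22 genes. Manf was not among the 19, so its promoter was not searched. The ER stress response element (ERSE), spelled CCAAT, then any 9 bases, then CCACG, was found in the windows of 9 of the 19 (47.4%) and in 39 of all 32851 windows (0.119%). A shorter form, ERSE-II (ATTGG, any base, then CCACG), was found in 2 of the 19 and in 12 of all windows (0.0365%), and the element TGACGTGG in 0 of the 19 and 222 of all windows (0.676%). The 3 motifs were counted apart, and no site of one overlaps a site of another among those shown. A match is a description of the letters, and the list holds known targets of these factors. The list is counted by gene, with a site in any window of the gene, and the background by window. The sites are shown 5′ to 3′ on the strand given, with the fixed letters of the motif in capitals, to let them be set beside the values above. Those without a name of the motif are ERSE.
Hspa5, chr2:34772025-34772043, plus strand: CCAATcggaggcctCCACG
Calr, chr8:84847075-84847093, plus strand: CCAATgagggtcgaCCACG
Canx, chr11:50325800-50325818, minus strand: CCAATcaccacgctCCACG
Creld2, chr15:88819520-88819538, minus strand: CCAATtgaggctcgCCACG
Derl3, chr10:75893242-75893260, minus strand: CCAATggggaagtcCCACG
Dnajc3, chr14:118937827-118937845, plus strand: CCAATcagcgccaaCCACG
Pdia6, chr12:17266491-17266509, plus strand: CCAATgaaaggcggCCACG
Syvn1, chr19:6046532-6046550, plus strand: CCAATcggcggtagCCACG
Hsp90b1, chr10:86705533-86705551, plus strand: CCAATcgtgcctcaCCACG
Hsp90b1, chr10:86705638-86705656, minus strand: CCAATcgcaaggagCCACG
Dnajb11, ERSE-II, chr16:22857852-22857862, plus strand: ATTGGcCCACG
Herpud1, ERSE-II, chr8:94386377-94386387, plus strand: ATTGGgCCACG

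Of the genes with an ERSE, Hsp90b1, Hspa5, Calr and Pdia6 were among the 7 called in the fit of 11 libraries, while Canx and Syvn1 had log2 fold changes of -0.11 and 0.02. The windows of Hsp90b1 and Dnajb11, members of the list among the 5 smallest p-values in the direction of lower levels in 5xFAD, are given whole, on the strand of the gene, with the motif letters in capitals. In Hsp90b1 the capitals mark an ERSE on the strand of the gene and another on the opposite strand, and in Dnajb11 an ERSE-II.
Hsp90b1, chr10:86705395-86705694, minus strand: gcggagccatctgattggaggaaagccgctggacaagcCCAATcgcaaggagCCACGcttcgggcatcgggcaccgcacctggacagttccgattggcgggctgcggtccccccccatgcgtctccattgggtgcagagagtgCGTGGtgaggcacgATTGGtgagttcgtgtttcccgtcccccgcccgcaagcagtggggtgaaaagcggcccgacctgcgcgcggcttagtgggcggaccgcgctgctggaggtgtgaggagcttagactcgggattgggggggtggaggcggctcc
Dnajb11, chr16:22857595-22857894, plus strand: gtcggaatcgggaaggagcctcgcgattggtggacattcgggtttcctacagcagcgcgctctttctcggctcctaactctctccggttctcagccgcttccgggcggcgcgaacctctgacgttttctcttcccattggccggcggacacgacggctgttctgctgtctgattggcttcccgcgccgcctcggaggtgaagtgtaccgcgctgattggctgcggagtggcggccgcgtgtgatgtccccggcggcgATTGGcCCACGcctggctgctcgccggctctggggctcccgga

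The chaperones of the cytosol and of mitochondria, which answer to heat shock factor 1, lay on the same side. Of 18 heat shock genes, 18 had log2 fold changes below 0, with a median of -0.36. EdgeR called 0, 11 had an unadjusted p under 0.05 (all lower in 5xFAD, against 6.08% of all genes), 9 had non-overlapping libraries (all lower, against 7.65%) and DESeq2 called 2 (Hspa8 and Hsph1, against 0.524% lower among all genes). Their summed level was 7014, 6894 and 6977 CPM in the 5xFAD replicates and 7933, 8638 and 9858 in Ulk1OV, with WT at 6334, 6746 and 6287. Hspa8, the constitutive chaperone that also uncoats clathrin vesicles, stood at 1915, 1848 and 1866 CPM in 5xFAD and 2277, 2544 and 2964 in Ulk1OV (-0.47 ± 0.11, edgeR adjusted p = 0.246). Hsph1, its nucleotide exchange factor, stood at 331, 282 and 296 in 5xFAD against 407, 391 and 498 CPM (-0.51 ± 0.14, edgeR adjusted p = 0.273). In both genes Ulk1OV replicate 3 was the highest library, and without it the median of the list was -0.24. Hsp90aa1 and Stip1, the stress-responsive HSP90 and the co-chaperone that links it to HSP70, had log2 fold changes of -0.37 ± 0.12 (edgeR adjusted p = 0.316) and -0.44 ± 0.13 (edgeR adjusted p = 0.289). The strongly inducible Hspa1a and Hspa1b, a near-identical pair whose reads are uncertain, overlapped between groups at -0.12 ± 0.28 and -0.64 ± 0.28. In the promoter windows matched for 13 of the 18 genes, a heat shock element (GAA, TTC and GAA, with any 2 bases between each) stood in 4 (30.8%), those of Chordc1, Hsph1 and the shared promoter of Hspd1 and Hspe1, against 198 of all windows (0.603%). The list is again counted by gene, so the shared promoter counts for both of its genes. It holds genes known to answer to heat shock factor 1.

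Targets of the PERK and ATF4 branch lay mostly on the other side of 0. Of 18 integrated stress response genes tested (19 listed), 13 had log2 fold changes above 0, with a median of 0.22. EdgeR called 0 and DESeq2 called 1 (Atf4, against 0.370% higher among all genes). At an unadjusted p under 0.05 there were 4, all higher in 5xFAD, against 5.69% of all genes. Without 5xFAD replicate 2 the median was 0.13. Atf4, the transcription factor of the pathway, stood at 115, 120.0 and 98.0 CPM in 5xFAD and 75.2, 87.4 and 75.2 in Ulk1OV (0.48 ± 0.11, edgeR adjusted p = 0.213). The libraries did not overlap, and the WT mean of 111 CPM lay with 5xFAD. Ddit4, an inhibitor of mTORC1, stood at 93.7, 74.2 and 79.9 in 5xFAD against 52.2, 70.1 and 43.5 CPM (0.58 ± 0.19, edgeR adjusted p = 0.316). Ddit3 (CHOP), which is linked to cell death under ER stress, overlapped at 19.4, 17.4 and 19.7 in 5xFAD against 17.8, 23.6 and 20.3 CPM (-0.13 ± 0.13, edgeR adjusted p = 0.724).

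Genes of cholesterol synthesis stood higher in 5xFAD than in Ulk1OV almost throughout the pathway. Of 24 genes, 23 had log2 fold changes above 0, with a median of 0.38. At an unadjusted p under 0.05 there were 16, all higher in 5xFAD (against 5.69% of all genes), and the libraries did not overlap in 16, against 7.35%. EdgeR called 0 in the fit of 12 libraries and 2 in that of 11 (Acat2 and Stard4, against 0.0454% higher among all genes). DESeq2 called 8 of 23, against 0.370% higher among all genes. All of these were higher in 5xFAD. Leaving out each of the 6 libraries moved the median between 0.32 and 0.42. The summed level of the list was 1836, 1854 and 1819.6 CPM in the 5xFAD replicates and 1316, 1506 and 1455 in Ulk1OV, with WT at 1676, 1797 and 1691. All 3 Ulk1OV sums lay below the 3 WT sums, and all 3 5xFAD sums lay above them. The library labelled 5xFAD;Ulk1OV replicate 3 had 1497 CPM, against 1818 and 1659 in replicates 1 and 2 of its group. Leaving it out in the fit of 11 can thus narrow the shared spread here too. Against the same WT libraries the median log2 fold change was 0.12 for 5xFAD and -0.26 for Ulk1OV.

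Acat2, a cytosolic thiolase at the entry of the pathway (chr17:12942890-12960747), stood at 43.2, 43.9 and 49.1 CPM in 5xFAD and 26.4, 32.3 and 29.5 in Ulk1OV, with WT at 41.8, 43.5 and 39.7. Its log2 fold change was 0.63 ± 0.10 (edgeR adjusted p = 0.116, or 0.027 without the library labelled 5xFAD;Ulk1OV replicate 3), the smallest p among genes higher in 5xFAD. Sqle, which makes the first oxygenation of the pathway, stood at 87.7, 89.7 and 92.2 CPM in 5xFAD and 62.0, 63.7 and 66.6 in Ulk1OV (0.49 ± 0.12, edgeR adjusted p = 0.244), with non-overlapping libraries. Fdft1, which makes squalene, had a log2 fold change of 0.46 ± 0.11 (edgeR adjusted p = 0.246). Stard4, a sterol carrier, stood at 49.4, 46.3 and 45.9 in 5xFAD against 31.9, 32.5 and 30.2 CPM (0.58 ± 0.12, edgeR adjusted p = 0.184, or 0.0242 in the fit of 11 libraries). Mvd, which makes isopentenyl diphosphate, was lower than WT in both groups, at 22.6, 18.7 and 19.4 CPM in 5xFAD, 9.61, 15.99 and 13.6 in Ulk1OV, with WT at 29.6, 29.3 and 23.8 (0.63 ± 0.17, edgeR adjusted p = 0.273). Srebf2 itself stood at 287, 222 and 246 in 5xFAD against 204, 217 and 191 CPM (0.30 ± 0.11, edgeR adjusted p = 0.333). Pmvk was the 1 member below 0, at -0.06 ± 0.13 (edgeR adjusted p = 0.878). The sterol regulatory element was searched on both strands in a fixed spelling with no variable base. That spelling was found in the windows of 0 of the 17 genes matched for the list and in 30 of all windows (0.0913%). A spelling this rare would be missing from most sets of this size, and other spellings were not searched. The 0 therefore does not show that these promoters lack the element. Acaca, the acetyl-CoA carboxylase of fatty acid synthesis, was outside the list and among the 5 smallest p-values of its direction, at 73.0, 68.7 and 70.1 CPM in 5xFAD, 53.7, 54.0 and 52.4 in Ulk1OV, with WT at 62.3, 62.5 and 64.3 (0.40 ± 0.07, edgeR adjusted p = 0.147).

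**Figure D3:**
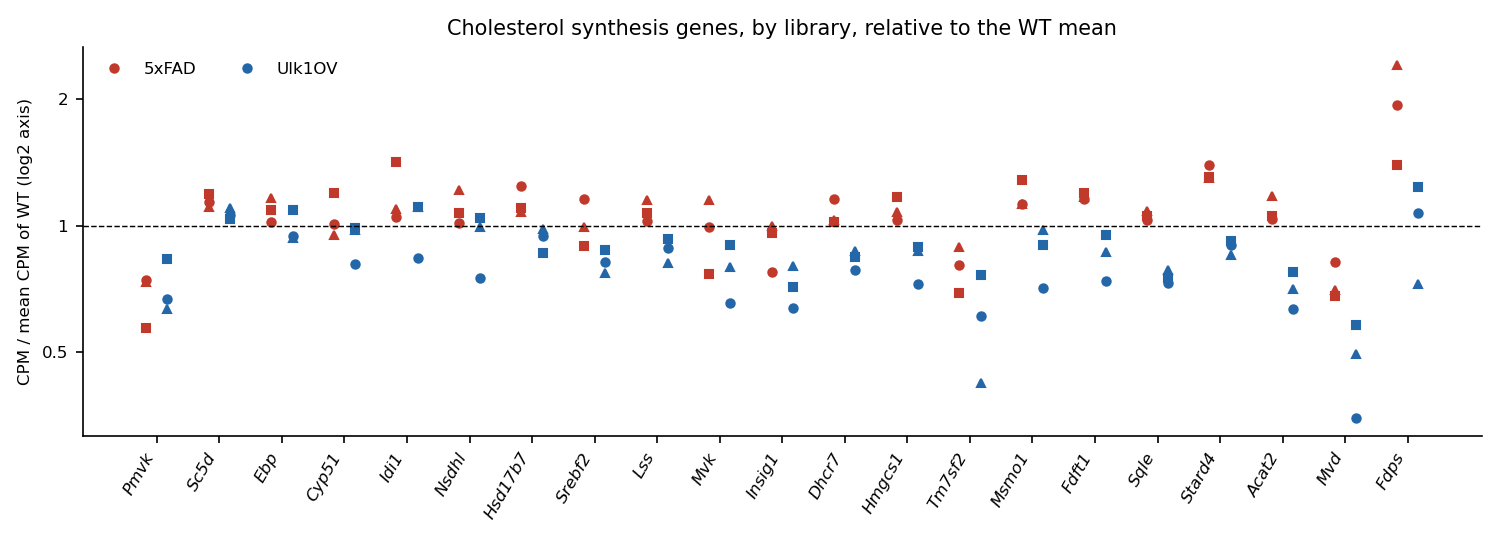
Level of 21 of the cholesterol synthesis genes in the 5xFAD and Ulk1OV libraries divided by the mean CPM of the 3 WT libraries (log2 axis, genes ordered by the log2 fold change of 5xFAD over Ulk1OV, circles, squares and triangles for replicates 1, 2 and 3). In 13 of these 21 genes all 5xFAD points lie above all Ulk1OV points, and most Ulk1OV points lie below the WT mean, drawn as a dashed line.

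Genes of disease-associated microglia stood higher in 5xFAD. Of 29 tested (30 listed), 25 had log2 fold changes above 0, with a median of 0.44. At an unadjusted p under 0.05 there were 14, all higher, against 5.69% of all genes, and the libraries did not overlap in 15 higher and 1 lower, against 7.35% and 7.65%. EdgeR called 0 in the fit of 12 libraries. The fit of 11 and DESeq2 each called Ccl6 and Cst7, against 0.0454% and 0.370% higher among all genes. Ccl6, a chemokine, stood at 6.44, 7.47 and 6.01 CPM in 5xFAD and 2.12, 2.83 and 3.11 in Ulk1OV, with WT at 2.997, 2.94 and 2.67 (1.30 ± 0.23, edgeR adjusted p = 0.147, or 0.0242 in the fit of 11 libraries). Cst7, an inhibitor of cysteine proteases, had 131, 84 and 79 counts in 5xFAD and 0, 9 and 4 in Ulk1OV, a log2 fold change of 4.41 ± 0.87 (edgeR adjusted p = 0.184, or 0.0238). These low counts leave the size of the ratio uncertain, but no 5xFAD library came near an Ulk1OV library. Clec7a, a pattern recognition receptor, stood at 2.88, 3.87 and 3.69 in 5xFAD against 1.31, 1.36 and 1.47 CPM (1.33 ± 0.39, edgeR adjusted p = 0.289), and Itgax at 1.92, 0.898 and 1.76 in 5xFAD against 0.749, 0.649 and 0.381 (1.37 ± 0.46, edgeR adjusted p = 0.316). Trem2, the lipid receptor that the state depends on, stood at 23.7, 28.4 and 24.3 CPM in 5xFAD and 14.5, 19.7 and 14.4 in Ulk1OV (0.65 ± 0.19, edgeR adjusted p = 0.296). H2-D1 and Ctsd, which also count among antigen presentation and lysosomal genes, had log2 fold changes of 0.46 ± 0.12 (edgeR adjusted p = 0.256) and 0.43 ± 0.12 (edgeR adjusted p = 0.279), and Ch25h, cholesterol 25-hydroxylase, one of 2.59 ± 0.62 (edgeR adjusted p = 0.238) at levels of at most 1.24 CPM. Several WT levels lay with 5xFAD and not with Ulk1OV: H2-D1 averaged 56.9 CPM in WT, Ctsd 233 and Ch25h 0.997. Apoe, the lipoprotein that also marks astrocytes, was 2096, 1907 and 1816 CPM in 5xFAD and 1721, 2449.8 and 2311 in Ulk1OV (-0.16 ± 0.13, edgeR adjusted p = 0.663). The summed level of the list, which the abundant Fth1 and Apoe dominate, overlapped between the groups, at 6465, 7056 and 6766 CPM and 6109.5, 7730.5 and 7005 CPM.

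Homeostatic microglia, complement, interferon response and antigen presentation genes were tested as separate lists. Homeostatic microglia genes had a median of 0.09 over 15, with 1 at an unadjusted p under 0.05 (Olfml3, 0.56 ± 0.21, edgeR adjusted p = 0.343, and 0.88 without Ulk1OV replicate 2). Their summed level was 1062, 1218 and 915 CPM in 5xFAD and 966, 1154 and 1026 in Ulk1OV. In bulk tissue, fewer cells of a type and less RNA per cell cannot be told apart. Complement genes had a median of 0.09 over 12, with 1 higher and 1 lower in 5xFAD at an unadjusted p under 0.05. The higher one was C4b, which reactive glia make, and it stood at 74.1, 98.8 and 83.8 CPM in 5xFAD and 49.5, 64.4 and 43.9 in Ulk1OV (0.70 ± 0.16, edgeR adjusted p = 0.213; called by DESeq2). Interferon response genes had a median of 0.31 over 20, with 4 at an unadjusted p under 0.05, all higher in 5xFAD (against 5.69% of all genes). Without 5xFAD replicate 2 that median was 0.05: Oasl2, an interferon-induced synthetase-like gene, was 4.07, 11.5 and 5.95 CPM in the 5xFAD replicates and 4.31, 4.19 and 2.34 in Ulk1OV (0.99 ± 0.38, edgeR adjusted p = 0.353, and 0.48 without 5xFAD replicate 2). Antigen presentation genes had a median of 0.28 over 18, 0.44 without 5xFAD replicate 1 and 0.15 without Ulk1OV replicate 3, with 2 higher and 1 lower in 5xFAD at an unadjusted p under 0.05. The lower one was Ciita, the master regulator of MHC class II, at no more than 0.386 CPM in 5xFAD and 0.59 to 0.981 in Ulk1OV (-1.66 ± 0.53, edgeR adjusted p = 0.316). EdgeR called 0 genes in these 4 lists, and DESeq2 1. Against the same WT libraries, the median of interferon response genes was -0.09 for 5xFAD and -0.54 for Ulk1OV. That of antigen presentation genes was -0.42 for 5xFAD and -0.62 for Ulk1OV, so neither list had a median above WT in either group.

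Genes that neurons switch on after firing stood higher in 5xFAD than in Ulk1OV, with medians below WT in both. Of 26 activity-dependent genes, 23 had log2 fold changes above 0, with a median of 0.22, and 10 higher and 1 lower at an unadjusted p under 0.05, against 5.69% and 6.08% of all genes. EdgeR called 0, and DESeq2 called Egr1, Egr4 and Junb (against 0.370% higher among all genes). Egr1 stood at 139, 138 and 126 CPM in 5xFAD and 105, 61.9 and 72.0 in Ulk1OV, with WT at 172, 206 and 165 (0.76 ± 0.15, edgeR adjusted p = 0.184). Ulk1OV replicate 1 was the highest of its group, and without it edgeR called Egr1 (log2 fold change 1.003, adjusted p = 0.0214). Junb stood at 58.7, 81.0 and 56.7 in 5xFAD against 41.1, 41.6 and 36.6 CPM, with WT at 96.0, 117 and 86.1 (0.72 ± 0.18, edgeR adjusted p = 0.253). Fos and Egr4 had log2 fold changes of 0.65 ± 0.20 (edgeR adjusted p = 0.313) and 0.87 ± 0.24 (edgeR adjusted p = 0.273). Their WT means were 36.9 and 43.0 CPM, above all 6 libraries. Inhba, an activin subunit, went the other way, at 7.46, 7.75 and 7.72 CPM in 5xFAD and 15.1, 10.1 and 15.4 in Ulk1OV (-0.82 ± 0.27, edgeR adjusted p = 0.316), and Bdnf overlapped (0.07 ± 0.14, edgeR adjusted p = 0.878). Against the same WT libraries, the median of the list was -0.28 for 5xFAD and -0.57 for Ulk1OV.

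Of 28 synapse genes, 26 had log2 fold changes above 0, with a median of 0.19, or 0.07 without 5xFAD replicate 1. There were 8 at an unadjusted p under 0.05, all higher in 5xFAD (against 5.69% of all genes), and the libraries did not overlap in 3, also higher (against 7.35%). EdgeR and DESeq2 called 0, and the summed levels overlapped, at 20306, 15854 and 17188 CPM in the 5xFAD replicates and 17466, 15734 and 15091 in Ulk1OV. Sv2a, a synaptic vesicle glycoprotein, stood at 408, 377 and 442 CPM in 5xFAD and 353, 325 and 304 in Ulk1OV (0.32 ± 0.09, edgeR adjusted p = 0.289), and Pclo, an active zone scaffold, at 174, 149 and 185 in 5xFAD against 156, 104 and 119 (0.42 ± 0.15, edgeR adjusted p = 0.333). Neuropeptide genes had a median of -0.25 over 19 tested (20 listed), with 1 higher and 3 lower in 5xFAD at an unadjusted p under 0.05 and edgeR calling 0. Scg2, a granin of dense core vesicles, stood at 156, 201 and 201 CPM in 5xFAD and 264, 259.9 and 291 in Ulk1OV (-0.55 ± 0.11, edgeR adjusted p = 0.173; called by DESeq2), with non-overlapping libraries. Leaving out single libraries moved the neuropeptide median between -0.40 and -0.14.

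Autophagy genes lay around 0. Of 40 genes of the ULK complex and of autophagosome formation, 18 had log2 fold changes above 0 and 22 below, with a median of -0.02 and a range of -0.32 to 0.29. EdgeR and DESeq2 called 0, and 6 had an unadjusted p under 0.05, all lower in 5xFAD (against 6.08% of all genes). The libraries did not overlap in 7 lower and 1 higher, against 7.65% and 7.35%. Ulk1 was the lowest member. Atg2b, a lipid transfer protein of the growing membrane, stood at 43.8, 45.5 and 44.0 CPM in 5xFAD and 52.7, 51.1 and 53.4 in Ulk1OV (-0.24 ± 0.07, edgeR adjusted p = 0.313), and Tax1bp1, a cargo receptor, at 164, 192 and 184 in 5xFAD against 200.04, 212 and 231 (-0.25 ± 0.08, edgeR adjusted p = 0.316). Both differences are small, although the libraries did not overlap. Lysosomal genes had a median of 0.03 over 30, with 2 higher and 3 lower in 5xFAD at an unadjusted p under 0.05. The 2 were Ctsd, given above, and Grn, the progranulin gene (0.32 ± 0.11, edgeR adjusted p = 0.322). Libraries did not overlap in 7 lysosomal genes higher and 4 lower in 5xFAD, against 7.35% and 7.65% of all genes. Their summed level was 7296, 6903 and 7009 CPM in the 5xFAD replicates and 6817, 6850 and 6710 in Ulk1OV, with WT at 6700, 6857 and 6840. The groups did not overlap in these sums, though the difference was small. The mTOR and AMPK signalling genes had a median of 0.02 over 25, with 3 at an unadjusted p under 0.05, among them Flcn, the folliculin gene (0.31 ± 0.09, edgeR adjusted p = 0.273), and Prkaa2, a catalytic subunit of AMPK (0.32 ± 0.13, edgeR adjusted p = 0.375, with 0.50 without Ulk1OV replicate 1 and 0.21 without Ulk1OV replicate 2). Genes that cleave or resemble APP had a median of 0.07 over 16, with 3 higher at an unadjusted p under 0.05, among them Aph1a, a subunit of gamma-secretase (0.31 ± 0.10, edgeR adjusted p = 0.313), and Aplp1 (0.21 ± 0.09, edgeR adjusted p = 0.376). EdgeR and DESeq2 called 0 genes in these 3 lists as well.

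Most nuclear genes of the respiratory chain stood lower in 5xFAD, by small amounts. Of 49, 40 had log2 fold changes below 0, with a median of -0.19. At an unadjusted p under 0.05 there were 18, all lower, against 6.08% of all genes. The libraries did not overlap in 4, all lower, against 7.65% of all genes. EdgeR called 0, and DESeq2 called Ndufa13, Cox5b and Cox7c, all lower (against 0.524% of all genes). The median depended on single libraries: it was -0.09 without Ulk1OV replicate 2 and -0.29 without Ulk1OV replicate 1. Ndufa13, a subunit of complex I, stood at 75.9, 80.6 and 102 CPM in 5xFAD and 111, 132 and 146 in Ulk1OV (-0.59 ± 0.12, edgeR adjusted p = 0.184), and Cox5b, of complex IV, at 123, 108 and 131 in 5xFAD against 143, 209 and 184 (-0.57 ± 0.12, edgeR adjusted p = 0.184). The summed level of the list was 6724, 6714 and 6624 CPM in 5xFAD, 6358, 8458 and 7528 in Ulk1OV, with WT at 7807, 7383 and 7266, so the Ulk1OV sums spanned the others. Protein genes of the mitochondrial genome had a median of -0.23 over 13, with 4 at an unadjusted p under 0.05, all lower in 5xFAD, and moved to -0.08 without Ulk1OV replicate 2 and -0.38 without 5xFAD replicate 2. Among them mt-Nd6, which is encoded opposite its neighbour and so uncertain, had a log2 fold change of -0.43 ± 0.12 (edgeR adjusted p = 0.273), and mt-Atp6, which has near-identical nuclear copies and is uncertain too, spanned 31.9 to 289 CPM over the 6 libraries (-1.80 ± 0.45, edgeR adjusted p = 0.246). ATP synthase genes had a median of -0.04 over 17, with 2 higher and 2 lower in 5xFAD at an unadjusted p under 0.05, among them Atp5h (-0.38 ± 0.12, edgeR adjusted p = 0.313) and Atp5j (-0.27 ± 0.08, edgeR adjusted p = 0.313). Cytosolic ribosome genes, whose reads can be shared with pseudogenes, had a median of -0.07 over 54, with 2 higher and 4 lower at an unadjusted p under 0.05, among them Rps23 (-0.51 ± 0.12, edgeR adjusted p = 0.234; called by DESeq2) and Rpl35 (-0.41 ± 0.14, edgeR adjusted p = 0.331, but -0.15 without Ulk1OV replicate 2). Proteasome genes had a median of -0.08 over 26, with 1 at an unadjusted p under 0.05 (Psmd7, -0.16 ± 0.07, edgeR adjusted p = 0.402). EdgeR called 0 genes in these 4 lists, and DESeq2 mt-Nd6 and Rps23.

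**Figure D4:**
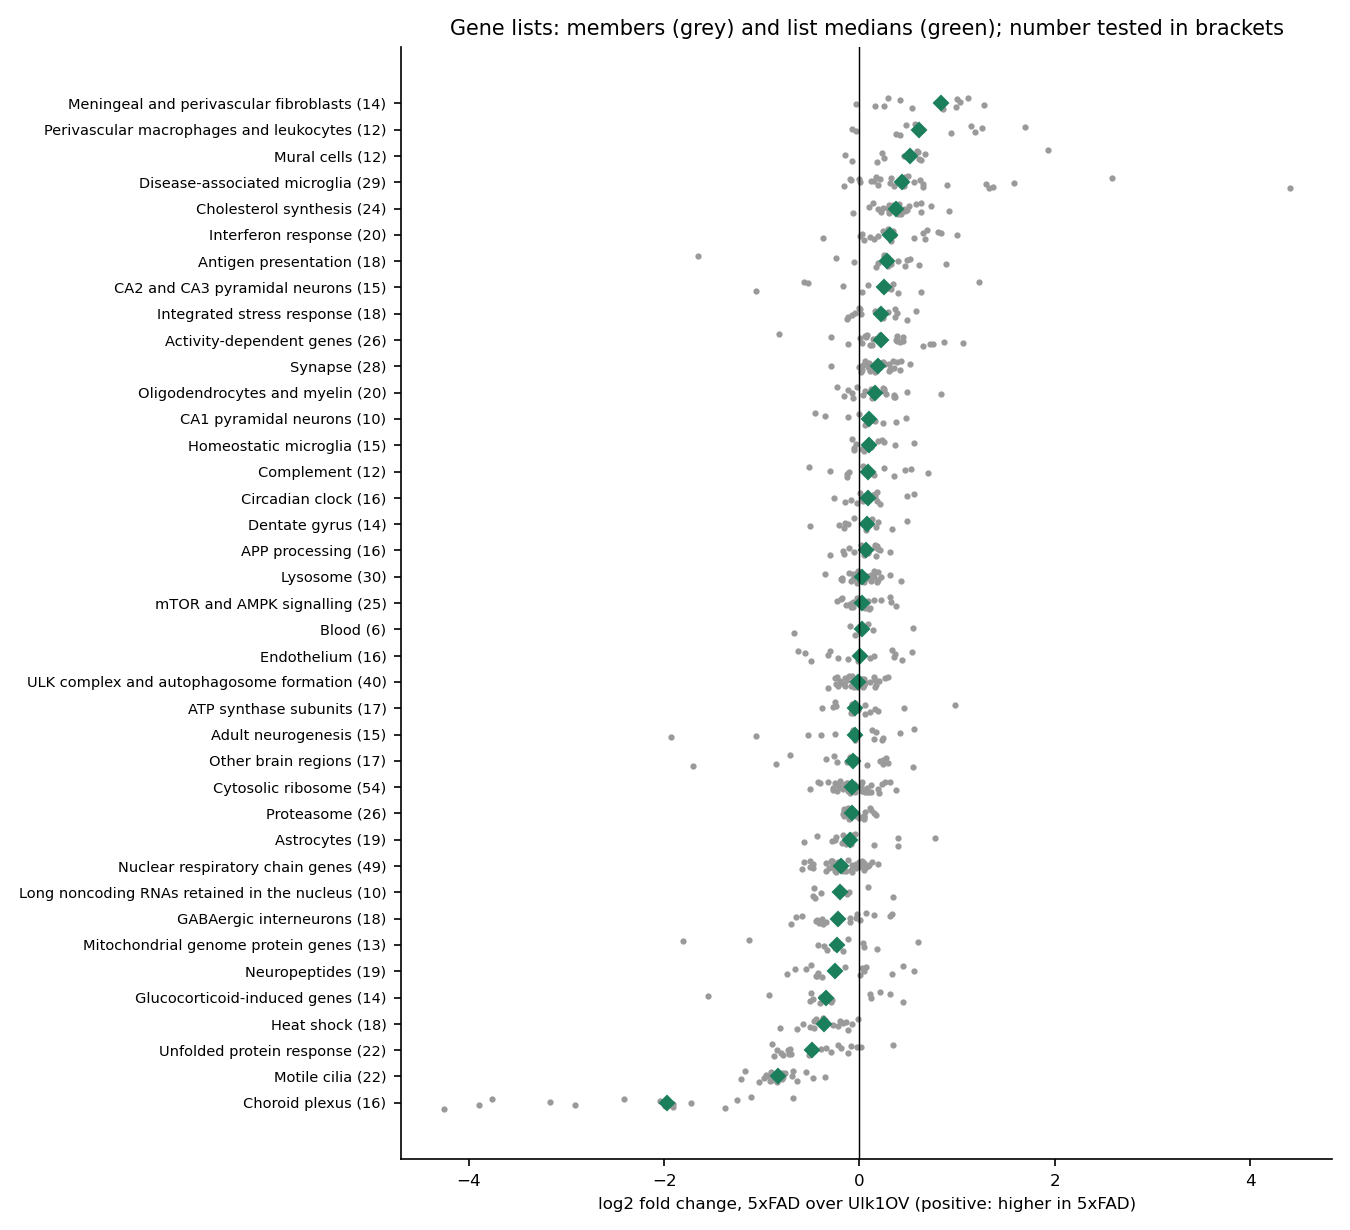
Log2 fold change of 5xFAD over Ulk1OV for each tested member (grey points) of the 39 gene lists and the median of each list (green diamonds), with the number tested in brackets, on a linear axis of log2 values. The lists of ER chaperones, heat shock, motile cilia and choroid plexus lie to the left, those of cholesterol synthesis, disease-associated microglia and fibroblasts to the right, and autophagy and lysosome around 0.

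Marker genes of cells that line or cover the hippocampus were examined next, and none passed the edgeR test. Genes of motile cilia, which ependymal cells carry, had 22 of 22 log2 fold changes below 0 and a median of -0.83, with 13 at an unadjusted p under 0.05, against 6.08% of all genes (edgeR and DESeq2 called 0). Their summed level was 101, 286 and 183 CPM in the 5xFAD replicates, 356, 287 and 364 in Ulk1OV, with WT at 183, 159 and 250.3. 5xFAD replicate 1 was the lowest of these libraries, and without it the median was -0.53. Cfap221, of the ciliary axoneme, stood at 1.02, 1.52 and 1.21 CPM in 5xFAD and 2.87, 3.19 and 2.40 in Ulk1OV (-1.17 ± 0.32, edgeR adjusted p = 0.273), and Drc1, a subunit of the dynein regulatory complex, at 8.99, 14.3 and 9.70 in 5xFAD against 14.9, 17.5 and 15.96 (-0.55 ± 0.17, edgeR adjusted p = 0.315). Choroid plexus genes had a median of -1.97 over 16, all below 0, with 2 at an unadjusted p under 0.05 (edgeR and DESeq2 called 0). That value came from 1 library: the sums were 243, 552 and 603 CPM in 5xFAD and 6130.1, 570.0 and 368 in Ulk1OV, and without Ulk1OV replicate 1 the median was -0.19. Ttr, transthyretin, stood at 5.09, 92.8 and 120.2 CPM in 5xFAD and 3994, 174 and 12.3 in Ulk1OV, and the members of smallest p were Cldn2 (-2.41 ± 1.02, edgeR adjusted p = 0.394, and -0.86 without Ulk1OV replicate 1) and Prlr (-2.05 ± 0.93, edgeR adjusted p = 0.42, and -0.91 without Ulk1OV replicate 1).

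Meningeal and perivascular fibroblast genes had 13 of 14 log2 fold changes above 0 (15 listed) and a median of 0.84. At an unadjusted p under 0.05 there were 6, all higher in 5xFAD, against 5.69% of all genes (edgeR and DESeq2 called 0). The sums were 175, 315 and 310.1 CPM in 5xFAD, 199.9, 205 and 195 in Ulk1OV, with WT at 559, 409 and 368. Both groups thus lay below WT, 5xFAD replicate 1 lay below Ulk1OV, and the median was 0.49 without 5xFAD replicate 3. Fmod, a small proteoglycan of collagen fibres, stood at 23.8, 24.7 and 29.7 CPM in 5xFAD and 15.8, 10.03 and 10.52 in Ulk1OV, with WT at 66.1, 48.6 and 31.0 (1.11 ± 0.37, edgeR adjusted p = 0.316), and Aldh1a2, which makes retinoic acid in the meninges, at 8.59, 17.8 and 20.3 in 5xFAD against 6.05, 9.26 and 8.01 (1.001 ± 0.40, edgeR adjusted p = 0.365). Genes of perivascular macrophages and leukocytes had a median of 0.61 over 12 tested (18 listed), at summed levels of only 11.4 to 27.1 CPM, with Lyve1 at 2.66, 2.08 and 2.48 in 5xFAD against 1.31, 1.59 and 0.872 CPM (0.94 ± 0.32, edgeR adjusted p = 0.319). Mural cell genes had a median of 0.52 over 12 tested (13 listed), or 0.28 without 5xFAD replicate 2, with Cnn1, calponin of smooth muscle, at 1.93 ± 0.79 (edgeR adjusted p = 0.379) and Vtn, vitronectin, at 0.67 ± 0.32 (edgeR adjusted p = 0.436). Endothelial genes had a median of 0.01 over 16, with Slc2a1, the glucose transporter of the blood-brain barrier, at -0.30 ± 0.11 (edgeR adjusted p = 0.344) and Esam at 0.54 ± 0.24 (edgeR adjusted p = 0.409). Blood genes had a median of 0.02 over 6 tested (7 listed), all overlapping between the groups. EdgeR and DESeq2 called 0 genes in these 4 lists, with 2, 1, 2 and 0 genes at an unadjusted p under 0.05. Without 5xFAD replicate 1, the library lowest in cilia genes, the medians of the ER chaperone, cholesterol synthesis and disease-associated microglia lists were -0.51, 0.41 and 0.48. Without Ulk1OV replicate 1, the library highest in choroid plexus genes, they were -0.48, 0.32 and 0.40. The part of fibroblasts and vessel cells in those lists was not tested.

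**Figure D5:**
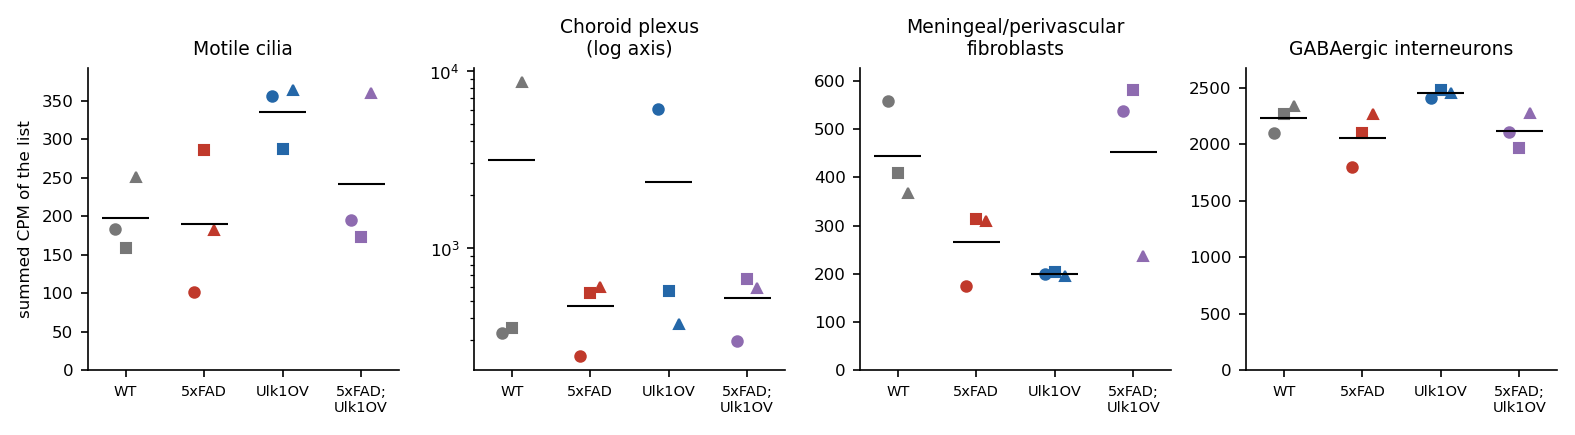
Summed level (CPM) of the marker lists of motile cilia, choroid plexus, fibroblasts and GABAergic interneurons in each of the 12 libraries, by group (circles, squares and triangles for replicates 1, 2 and 3, bars for the means of 3, linear axes from 0 but a log axis for choroid plexus). Ulk1OV replicate 1 stands alone among the 6 libraries in choroid plexus genes, and the 3 Ulk1OV libraries lie above the 3 of 5xFAD in cilia genes, by little, and in interneuron genes.

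Among neurons, the summed level of interneuron genes was lower in 5xFAD, with 0 genes called by edgeR. Of 18 genes of GABAergic interneurons, 13 had log2 fold changes below 0, with a median of -0.22, or -0.35 without 5xFAD replicate 2. Of these, 6 had an unadjusted p under 0.05, all lower (against 6.08% of all genes), and DESeq2 called Dlx1. The sums were 1797, 2101 and 2267 CPM in 5xFAD and 2414, 2477 and 2458 in Ulk1OV, with WT at 2098, 2272 and 2335. The groups did not overlap in their sums, and the WT sums overlapped those of 5xFAD. Dlx1, a transcription factor of the lineage, stood at 21.8, 31.1 and 31.6 CPM in 5xFAD and 43.7, 39.1 and 50.0 in Ulk1OV (-0.65 ± 0.17, edgeR adjusted p = 0.273), and Dlx6os1, a noncoding RNA of the Dlx5 and Dlx6 locus, at 14.3, 15.7 and 13.2 in 5xFAD against 18.9, 19.4 and 26.5 (-0.59 ± 0.17, edgeR adjusted p = 0.289). Vip, made by interneurons that inhibit other interneurons, stood at 21.2, 20.8 and 17.8 in 5xFAD against 23.3, 28.1 and 29.2 CPM (-0.43 ± 0.17, edgeR adjusted p = 0.367). Tissue from outside the hippocampus was looked for too: Zic1, from a list of other brain regions, was 10.9, 22.3 and 42.1 CPM in 5xFAD and 107, 24.0 and 115 in Ulk1OV (-1.70 ± 0.57, edgeR adjusted p = 0.316), and Drd2 3.39, 2.58 and 3.53 in 5xFAD against 5.30, 2.89 and 8.99 (-0.86 ± 0.33, edgeR adjusted p = 0.354, and -0.37 without Ulk1OV replicate 3). Ulk1OV replicates 1 and 3 were high in Zic1 and replicate 2 was not. The median of that list of other regions was -0.07 over 17 tested (20 listed), with 2 lower in 5xFAD at an unadjusted p under 0.05. Its part in the interneuron values was not tested.

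The summed levels of genes of the hippocampal principal cells overlapped between the groups. Dentate gyrus genes had a median of 0.08 over 14 and 0 at an unadjusted p under 0.05, with Calb1, calbindin, at -0.21 ± 0.12 (edgeR adjusted p = 0.486), or -0.14 without Ulk1OV replicate 3, and Pdzd2 at -0.51 ± 0.24 (edgeR adjusted p = 0.433). Ulk1OV replicate 1 was the highest of the 6 libraries in Pdzd2 (77.1 CPM), and its log2 fold change was -0.23 without Ulk1OV replicate 1. CA1 genes had a median of 0.10 over 10, with Pou3f1 at 0.37 ± 0.16 (edgeR adjusted p = 0.388). CA2 and CA3 genes had a median of 0.25 over 15, or -0.03 without 5xFAD replicate 1, with 3 higher and 1 lower at an unadjusted p under 0.05. Prkcd, a protein kinase C, was the lower one, at 36.9, 16.4 and 27.6 CPM in 5xFAD and 64.3, 31.4 and 72.3 in Ulk1OV (-1.05 ± 0.31, edgeR adjusted p = 0.303). As in Zic1 and Drd2, Ulk1OV replicate 2 was the lowest of its group in Prkcd. The part of tissue from outside the hippocampus in this difference was not tested. Bok was among the higher ones at 0.39 ± 0.14 (edgeR adjusted p = 0.34), or 0.22 without 5xFAD replicate 1. Genes of adult neurogenesis had a median of -0.05 over 15 tested (16 listed), with Igfbpl1, a marker of newborn neurons, at 1.13, 1.01 and 1.82 in 5xFAD against 4.18, 3.24 and 7.74 CPM (-1.93 ± 0.64, edgeR adjusted p = 0.316) and Bhlhe22 at 143, 92.5 and 92.4 in 5xFAD against 80.6, 96.0 and 69.6 CPM (0.41 ± 0.18, edgeR adjusted p = 0.396, but 0.17 without 5xFAD replicate 1). EdgeR and DESeq2 called 0 genes in these 4 lists. At an unadjusted p under 0.05 were also 1 gene of CA1 and 3 of neurogenesis.

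Among lists of other glia, edgeR called 0 genes. Astrocyte genes had a median of -0.10 over 19 tested (20 listed), with 2 higher and 3 lower in 5xFAD at an unadjusted p under 0.05. Gfap, the filament protein of reactive astrocytes, stood at 1014, 1179 and 1007 CPM in 5xFAD and 674, 902 and 851 in Ulk1OV (0.40 ± 0.12, edgeR adjusted p = 0.313), all 5xFAD libraries above all of Ulk1OV. Gjb6, a gap junction gene, lay the other way, at 116, 104 and 100.3 in 5xFAD against 135, 174 and 163 CPM (-0.56 ± 0.12, edgeR adjusted p = 0.184; called by DESeq2). Genes of oligodendrocytes and myelin had a median of 0.16 over 20, 0.04 without 5xFAD replicate 2, 0.05 without 5xFAD replicate 3 and 0.34 without 5xFAD replicate 1, with 1 at an unadjusted p under 0.05. Opalin, a myelin protein, was 22.4, 56.3 and 67.5 CPM in 5xFAD and 24.8, 30.5 and 26.5 in Ulk1OV (0.84 ± 0.30, edgeR adjusted p = 0.333, and 0.53 without 5xFAD replicate 3), and Aspa, which splits N-acetylaspartate, 22.3, 50.1 and 50.4 in 5xFAD against 29.9, 30.3 and 27.6 (0.49 ± 0.25, edgeR adjusted p = 0.459, with 0.78 without 5xFAD replicate 1 and 0.31 without 5xFAD replicate 3). In both genes 5xFAD replicate 1 lay below Ulk1OV and replicates 2 and 3 above it. Circadian clock genes had a median of 0.09 over 16, with 2 at an unadjusted p under 0.05 and both higher in 5xFAD: Dbp, a clock output factor, at 59.8, 53.1 and 49.5 in 5xFAD against 34.7, 46.0 and 34.8 CPM (0.49 ± 0.17, edgeR adjusted p = 0.316), and Ciart at 0.56 ± 0.19 (edgeR adjusted p = 0.317). Glucocorticoid-induced genes had a median of -0.34 over 14 tested (15 listed), between -0.54 and -0.19 over the libraries left out, with 3 lower at an unadjusted p under 0.05, among them Sult1a1 (-0.92 ± 0.24, edgeR adjusted p = 0.267; called by DESeq2) and Htra1 (-0.50 ± 0.18, edgeR adjusted p = 0.333). Long noncoding RNAs retained in the nucleus had a median of -0.20 over 10 tested (11 listed), or -0.40 without 5xFAD replicate 1, with 1 at an unadjusted p under 0.05. Malat1 was 186, 212 and 181 CPM in 5xFAD and 326, 195 and 270.5 in Ulk1OV (-0.45 ± 0.21, edgeR adjusted p = 0.424, and -0.27 without Ulk1OV replicate 1), and Kcnq1ot1 had a log2 fold change of -0.47 ± 0.25 (edgeR adjusted p = 0.476), or -0.24 without 5xFAD replicate 3. EdgeR called 0 genes in these 5 lists.

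Outside the lists, the genes with the smallest p-values in each direction included 2 processed pseudogenes and an RNA-binding protein. Gm6304, a processed pseudogene, was counted 19, 13 and 7 times in the 5xFAD replicates and 104, 112 and 140 times in Ulk1OV, with WT at 67, 51 and 23. The groups of the comparison were far apart, with WT spread between them (-3.23 ± 0.50, edgeR adjusted p = 0.116, or 0.0215 in the fit of 11 libraries). Gm15542 (chr7:140890887-140892080) stood at 9.55, 11.01 and 12.8 CPM in 5xFAD and 17.8, 19.8 and 27.0 in Ulk1OV, with WT at 9.76, 9.37 and 7.88 (-0.96 ± 0.17, edgeR adjusted p = 0.147). Reads of processed pseudogenes can belong to their parent genes, so both values are uncertain. Hnrnpdl, which encodes a splicing regulator (chr5:100033577-100039664), stood at 168, 181 and 179 CPM in 5xFAD and 128, 122 and 111 in Ulk1OV, with WT at 179, 197 and 177 (0.55 ± 0.10, edgeR adjusted p = 0.147, or 0.0238 in the fit of 11 libraries). The 3 Ulk1OV libraries were the low ones, and 5xFAD and WT overlapped.

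Since neither group is a control, the side from which each difference came can be read only against WT, which both comparisons then share. Against WT, edgeR called 0 of 17227 genes in 5xFAD (0%) and 891 in Ulk1OV (5.17%). At an unadjusted p under 0.05 there were 2139 (12.4%) in 5xFAD and 4152 (24.1%) in Ulk1OV. In the fit of 11 libraries, which for WT was added after seeing the data, edgeR called 3 (0.0170%) in 5xFAD, namely Prnp, App and Lamr1-ps1. Lamr1-ps1 is the gene by which the library left out was picked. In Ulk1OV that fit called 1183 (6.72%). At an unadjusted p under 0.05 it gave 2235 (12.7%) in 5xFAD and 4311 (24.5%) in Ulk1OV. The values of single genes that follow are from the fit of 12. For Manf the log2 fold change was -0.08 ± 0.11 in 5xFAD (edgeR adjusted p = 0.783) and 0.76 ± 0.11 in Ulk1OV (0.0113). For Hsp90b1 the values were -0.02 ± 0.13 (edgeR adjusted p = 0.957) and 0.76 ± 0.13 (0.0199), and for Acat2 0.12 ± 0.10 (0.637) and -0.50 ± 0.10 (0.0251). For Ccl6 they were 1.21 ± 0.23 in 5xFAD (edgeR adjusted p = 0.111) and -0.09 ± 0.24 in Ulk1OV (0.848), and for Prnp 1.19 ± 0.23 (0.111) and -0.06 ± 0.22 (0.887). In the fit of 11, the edgeR adjusted p in 5xFAD was 0.0743 for Ccl6 and 0.000286 for Prnp, and in Ulk1OV it was 0.00581 for Manf, 0.00501 for Hsp90b1 and 0.0171 for Acat2. Dnajb11 had -0.32 ± 0.09 in 5xFAD (edgeR adjusted p = 0.236) and 0.19 ± 0.09 in Ulk1OV (0.206). The values of Manf, Hsp90b1 and Acat2 lay nearer to WT in 5xFAD, those of Ccl6 and Prnp nearer to WT in Ulk1OV, and those of Dnajb11 on either side of WT.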

How the data were processed

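RNA-seq counts of hippocampal tissue were compared between 3 libraries of 5xFAD and 3 of Ulk1OV. The authors deposited 1 table of whole-number counts per gene and library. The submitters' processing notes name FastQC, Trim Galore, HISAT2, SAMtools, featureCounts, DESeq2 and the build mm10, with no versions. Strand setting and annotation are not stated in the labels used here, so overlapping and antisense genes cannot be told apart. The deposited file had 24 symbols turned into dates.

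The counts of all 12 libraries were fitted with edgeR 4.0.16 in R 4.3.3 (quasi-likelihood test, 1 mean per group, TMM scaling, filterByExpr defaults), and the contrast was 5xFAD minus Ulk1OV. Calls had a Benjamini-Hochberg adjusted p under 0.05 over all 17227 genes tested. Where a list count at an unadjusted p under 0.05 has no share beside it, the shares of all genes were 5.69% higher in 5xFAD and 6.08% lower. For DESeq2 calls without a share beside them, those shares were 0.370% and 0.524%. A standard error is the size of the log2 value over the root of its F statistic, and CPM are scaled by TMM. Library totals ran from 16149992 to 18547132, and the number of libraries limits the precision. Ulk1 and App also had an exact two-sided permutation test over samples, whose smallest possible p is 0.1. The scripts were tested on simulated data.

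The comparison and the gene lists were chosen with earlier results of these data known. The rule for named genes took Ulk1, App, Prnp, Thy1 and Lamr1-ps1, up to 12 called genes per direction of at least 1 CPM, the 5 smallest p-values per direction and, in each list, up to 4 called members or else the 2 of smallest p. Other genes were named after their values were seen, and a few members of the lists are counted but not reported here by name. Promoter windows came from RefSeq (GRCm38.p6). Alternatives were DESeq2 1.42.0, its size factors, no filter, other sets of libraries, a replicate block, removal of trends over GC content and length (loess of span 0.4, values for 99.3% of genes tested) and each library left out.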

Additional observations from a re-analysis of the deposited data

How the results depend on the processing

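The direction of the Ulk1 and App differences held under each of 21 alternatives, as did that of Manf. The number of genes called was 1 (0 higher in 5xFAD, 1 lower) with TMM or DESeq2 size factors. It was 133 with DESeq2 (55 higher, 78 lower), 682 with no filter on low counts (284 and 398), 5 with only the 6 libraries (2 and 3), 18 in the fit of 11 libraries, which omits the one labelled 5xFAD;Ulk1OV replicate 3 (8 and 10), and 3 with the GC content and length correction (1 and 2). Without a filter, genes of very low counts enter the test. Leaving out each replicate gave 0 to 9 calls, 0 to 2 of them higher and 0 to 7 lower, a log2 fold change of Ulk1 of -0.45 to -0.23 and of App of 0.81 to 0.95. Of the 6 omissions, those of 5xFAD replicates 2 and 3 and Ulk1OV replicate 3 left 0 calls, with 2311, 1697 and 1182 genes at an unadjusted p under 0.05. App passed the test with DESeq2 (0.88, adjusted p = 0.00122), with no filter (0.88, edgeR adjusted p = 5.18e-10) and in the fit of 11 libraries (0.88, edgeR adjusted p = 0.00322), over a range of adjusted p of 5.18e-10 to 0.664. The cause of these changes was not tested.

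The same replicate numbers did not pair the libraries: deviations from the group means correlated at -0.0289, -0.0172 and -0.0257 between same-numbered libraries over 15213 genes, and no library correlated best with its own number. The highest correlations were between other numbers: 0.105 for 5xFAD 1 with Ulk1OV 2, 0.118 for 5xFAD 2 with Ulk1OV 3 and 0.138 for 5xFAD 3 with Ulk1OV 1. The remaining pairs ran from -0.123 to -0.0795. A block by those pairs was not tested. With the replicate block 2 genes were called (0 higher, 2 lower; Ulk1 -0.32 and App 0.88 on the log2 scale), and with the block and the GC content and length correction 6 (1 and 5).

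Alternatives chosen after seeing the data left out each library together with the one labelled 5xFAD;Ulk1OV replicate 3. They gave 38, 7 and 5 calls without 5xFAD replicates 1, 2 and 3 (11, 3 and 3 higher, 27, 4 and 2 lower) and 54, 10 and 4 without Ulk1OV replicates 1, 2 and 3 (19, 6 and 2 higher, 35, 4 and 2 lower). App then had log2 fold changes of 0.84, 0.93, 0.87, 0.94 and 0.81 where it passed, and missed the threshold without Ulk1OV replicate 3 (edgeR adjusted p = 0.0505). The GC content and length correction in the fit of 11 libraries gave 35 calls (12 higher, 23 lower), with Ulk1 at -0.43 (edgeR adjusted p = 0.0331) and App at 0.86 (0.000946). Some list medians took either sign when 1 library was left out, such as those of complement (-0.02 to 0.17), dentate gyrus (-0.16 to 0.17) and CA2 and CA3 genes (-0.03 to 0.35). Others near 0 kept their sign, such as those of lysosomal (0.02 to 0.05) and proteasome genes (-0.10 to -0.007). With the GC content and length correction, the medians of the ER chaperone, cholesterol synthesis and disease-associated microglia lists were -0.48, 0.39 and 0.43. Genes of a few counts per library, such as Cst7 and Ciita, have ratios of low precision.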
